A study of Mus musculus with 121 samples.

Results

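The 10 genes described here mark immature neurons and dividing cells: Dcx, Sox11, Sox4, Dlx1, Dlx2, Sp8, Igfbpl1, Cd24a, Mki67 and Top2a. They are the rows of the deposited count table whose symbol equals 1 of these names, 10 of its 24412 genes. They were followed over 3 brain regions, 2 mouse models and 3 Gdnf genotypes.

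New neurons are made in the adult rodent brain by stem cells that line the lateral ventricle beside the striatum, and by others in the hippocampus. Young neurons leave the ventricle wall as chains of migrating cells, the rostral migratory stream, which runs forward to the olfactory bulb, where they become interneurons. Doublecortin (Dcx) binds the microtubules of such cells, Dlx1, Dlx2 and Sp8 are transcription factors of the interneuron lineage, Sox4 and Sox11 are transcription factors of early neuronal differentiation, and Mki67 and Top2a are transcribed in cycling cells.

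The study asked what more glial cell line-derived neurotrophic factor (GDNF) from the animal's own gene does to the dopamine system. All mice were males of a mixed 129Ola/ICR/C57bl6 background and carried 0, 1 or 2 copies of a conditional Gdnf allele (cKU in the labels, cHyper in the study) that is turned up by Cre: wt/wt (WT), wt/cKU (HET) and cKU/cKU (HOM). In the Nestin-Cre mice Cre is driven from a promoter active throughout the developing central nervous system from mid-gestation. The labels give these mice as 2 months old, and the study's text gives 2 to 3 months for STR and SN. The AAV-Cre mice were 5 to 7 months old and had received a Cre-carrying adeno-associated virus in both striata at 3 to 5 months, the WT mice included. The study's names for its control groups give Cre to the WT mice of both models, so a group with neither Cre nor surgery is not part of the comparisons. Prefrontal cortex (PFC), striatum (STR) and substantia nigra (SN) were cut from brain slices, and each library held the RNA of 1 region of 1 mouse. WT, HET and HOM libraries numbered 8, 6 and 4 in Nestin-Cre PFC, 6, 7 and 6 in Nestin-Cre STR and again in SN, 7, 7 and 8 in AAV-Cre PFC, 7, 7 and 7 in AAV-Cre STR, and 7, 7 and 8 in AAV-Cre SN. Age, Cre driver, injection and cohort differ together between the models and cannot be told apart.

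The libraries held 9869584 to 26750905 counts (median 17885830). Markers of PFC and SN followed the labels: Slc17a7, a vesicular glutamate transporter of cortical neurons, was at 1392 to 1867 counts per 1000000 counts of a TMM-scaled library (cpm) in PFC and at most 386.5 cpm elsewhere. Slc6a3, the dopamine transporter, was at 509.9 to 2071 cpm in SN and at most 3.72 cpm elsewhere. Gdnf itself was at 5.98 ± 1.27 cpm (SD, n = 6) in WT, 6.25 ± 1.82 in HET (n = 7) and 7.26 ± 1.47 in HOM (n = 6) STR of Nestin-Cre mice, and at 6.65 ± 0.731, 7.63 ± 1.06 and 8.76 ± 0.888 cpm (n = 7 each) in AAV-Cre STR. The HOM libraries of AAV-Cre STR (7.71 to 10.1 cpm) did not overlap the WT ones (5.49 to 7.51 cpm), with a log2 fold change of 0.40 ± 0.0938 (SE) and an adjusted p of 0.504. Gdnf means stayed below 1.1 cpm in PFC and SN. The study itself measured striatal Gdnf by qPCR and reported a rise in HET and HOM mice of both models. It also reported more GDNF protein in Nestin-Cre striatum. After Cre the allele gives a Gdnf transcript with a shorter untranslated end. How that changes counts over the annotated exons was not tested, so the counts here are no measure of the size of the rise. The libraries N_PFC_WT_4575, N_STR_HOM_4575 and N_SN_HOM_4575 bear 1 animal number with different genotypes. Leaving all 3 out changed no count of the 10 genes called by more than 1.5 times in any comparison.

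Mki67 (minus strand of chr7:135689788-135716379, mm10) and Top2a (minus strand of chr11:98992947-99024189) encode a protein that coats mitotic chromosomes and the DNA topoisomerase that untangles them. Their promoters are shown because these genes moved together most closely of all pairs that include a division gene (correlations further on), beside that of Dcx (minus strand of chrX:143855842-143933219), the gene read most widely as a sign of new neurons. Each run holds the 250 bases before the transcript start, 5′ to 3′ on the gene's strand, from RefSeq on GRCm38.p6. Capitals mark 3 motifs. CCAAT, which on the other strand appears as ATTGG, is the box bound by the factor NF-Y. TTTGAA, which on the other strand appears as TTCAAA, is the core of the cell cycle genes homology region found in many division genes. The last is TAATTA, which reads the same on both strands and is a core bound by homeobox proteins.
Mki67, chr7:135716380-135716629: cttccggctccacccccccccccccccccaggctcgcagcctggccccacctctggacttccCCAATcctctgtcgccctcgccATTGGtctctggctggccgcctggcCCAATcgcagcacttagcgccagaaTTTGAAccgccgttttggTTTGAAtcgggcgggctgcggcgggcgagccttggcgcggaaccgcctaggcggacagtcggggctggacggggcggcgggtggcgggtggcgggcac
Top2a, chr11:99024190-99024439: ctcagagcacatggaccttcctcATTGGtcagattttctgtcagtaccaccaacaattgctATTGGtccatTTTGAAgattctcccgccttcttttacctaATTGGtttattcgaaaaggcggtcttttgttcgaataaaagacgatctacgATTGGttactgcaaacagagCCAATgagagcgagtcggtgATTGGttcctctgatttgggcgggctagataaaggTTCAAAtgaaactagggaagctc
Dcx, chrX:143933220-143933469: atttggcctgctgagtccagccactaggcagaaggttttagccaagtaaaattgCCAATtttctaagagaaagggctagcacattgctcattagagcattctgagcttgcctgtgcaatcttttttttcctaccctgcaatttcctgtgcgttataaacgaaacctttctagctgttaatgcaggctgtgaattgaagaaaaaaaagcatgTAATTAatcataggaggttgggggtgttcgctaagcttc

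Both division genes held 2 TTTGAA motifs, with 3 CCAAT boxes in the Mki67 window and 6 in that of Top2a, although their base composition differed (71.6% and 43.6% G or C). The Dcx window held 1 CCAAT box, 1 TAATTA and no TTTGAA. RefSeq gives 32851 mouse promoters of this length, of which 33.8% hold CCAAT, 16.0% TTTGAA and 4.84% TAATTA. Promoters of 8 of the 10 genes were listed there, 11 windows in all. Sox4 had 4 CCAAT boxes in its window, Sox11 had 1 CCAAT and 1 TTTGAA, Dlx2 had 1 CCAAT, and Dlx1 had 0 of the 3 motifs. Sp8 has 3 starts there: the window of the start at 118846329 held 1 CCAAT, that at 118847233 1 CCAAT and 1 TTTGAA, and that at 118847559 1 TAATTA. A second Dcx window, of a start 95 bases downstream, held 1 TAATTA and neither of the others. These are matches of letters and no measure of binding.

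Dcx was higher in PFC than in the other regions. In WT Nestin-Cre mice it ran from 42.6 to 89.8 cpm (median 65.0) in PFC, 15.1 to 35.5 (median 21.4) in STR and from 16.3 to 26.7 (median 18.4) in SN. The PFC libraries all lay above those of STR and of SN, while STR and SN overlapped. Means were 65.3 ± 16.7 (SD, n = 8), 24.5 ± 8.37 (n = 6) and 19.4 ± 3.77 cpm (n = 6), with log2 fold changes of -1.42 ± 0.196 (SE, adjusted p = 2.05e-06) for STR against PFC and -1.77 ± 0.200 for SN against PFC. STR and SN were not separated (-0.35 ± 0.208, adjusted p = 0.136), although Dcx was called lower in SN with mouse as a block. WT AAV-Cre mice showed the same order for PFC, with 37.6 to 66.3 cpm (median 45.5) against 22.6 to 31.0 (median 28.0) in STR and 19.2 to 32.3 (median 29.2) in SN. The falls from PFC were -0.85 ± 0.127 in STR and -0.78 ± 0.127 in SN, and STR and SN again did not differ by the test (0.07 ± 0.128, adjusted p = 0.648).

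Sox11 (minus strand of chr12:27334268-27342718) and Sox4 (minus strand of chr13:28950730-28953682), a pair of related SoxC factors, had different regional orders. Sox11 was highest in STR, at 17.99 to 32.2 cpm (median 27.3) in WT Nestin-Cre mice, against 18.1 to 24.1 (median 19.5) in PFC and 8.03 to 12.3 (median 10.03) in SN. STR and PFC overlapped and SN lay apart below both. Sox11 was higher in STR than in PFC in both models (0.38 ± 0.119, adjusted p = 0.00798 in the Nestin-Cre and 0.36 ± 0.104 in the AAV-Cre mice) and lower in SN than in STR (-1.38 ± 0.132 and -0.76 ± 0.104). Sox4 was highest in PFC, at 8.71 to 21.3 cpm (median 13.6) in WT Nestin-Cre mice, against 4.87 to 9.14 (median 6.46) in STR and 4.56 to 6.60 (median 5.14) in SN. Only SN lay apart from PFC. Sox4 was lower in STR than in PFC by -1.06 ± 0.176 (adjusted p = 2.12e-05) in the Nestin-Cre and -0.45 ± 0.148 in the AAV-Cre mice, and it was not separated between SN and STR (adjusted p = 0.134 and 0.139). With mouse as a block it was called lower in SN than in STR of Nestin-Cre mice.

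Dlx1 (plus strand of chr2:71529445-71533981) and Dlx2 (minus strand of chr2:71543408-71546754) are neighbouring homeobox genes that specify forebrain interneurons. Dlx1 fell stepwise over the regions in WT Nestin-Cre mice, from 29.5 to 70.8 cpm (median 39.9) in PFC over 5.76 to 17.6 (median 11.3) in STR to 2.94 to 5.80 (median 4.03) in SN. PFC did not overlap the other regions, and the lowest STR library lay within the range of SN. The log2 fold changes of Dlx1 were -1.89 ± 0.224 for STR against PFC (adjusted p = 2.41e-07) and -1.49 ± 0.254 for SN against STR, and in AAV-Cre mice -1.49 ± 0.281 and -2.01 ± 0.320. Dlx2 went from 5.94 to 14.4 cpm (median 9.28) in PFC and 2.11 to 8.98 (median 7.21) in STR to 0.686 to 1.44 (median 1.22) in SN. The PFC and STR ranges of Dlx2 overlapped, and SN lay below both. Dlx2 in SN was lower than in STR by -2.46 ± 0.290 and in AAV-Cre mice by -2.81 ± 0.312. Its step from PFC to STR was smaller (-0.55 ± 0.235, adjusted p = 0.0479, and -0.52 ± 0.262, adjusted p = 0.092) and was lost in Nestin-Cre mice with mouse as a block (-0.32, adjusted p = 0.144) or without N_PFC_WT_4329 (-0.43, adjusted p = 0.112). In HET libraries in place of WT its sign turned (0.19). Dlx1as, a gene annotated opposite to Dlx1, moved the same way (-1.52 ± 0.247 for STR against PFC in Nestin-Cre mice). The libraries were strand-specific, but the strand setting of the counting is not given in the sources used here, so reads of Dlx1 and Dlx1as cannot be told apart with certainty.

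Sp8 (plus strand of chr12:118846329-118852578), a zinc finger factor of olfactory bulb interneurons, had the steepest fall from PFC to STR of the 10 genes in both models. In WT Nestin-Cre mice it was at 3.38 to 16.5 cpm (median 9.33) in PFC, 0.488 to 1.82 (median 0.824) in STR and 0.266 to 2.35 (median 0.552) in SN. PFC lay above both other regions, which overlapped each other. The log2 fold change for STR against PFC was -3.35 ± 0.419 (adjusted p = 5.17e-07), and in AAV-Cre mice -2.10 ± 0.50. Sp8 was also the most variable gene within PFC, with a coefficient of variation of 72.04% as the median over the 6 PFC groups, against 14.2% for Sox11. Genes of the olfactory bulb, whose interneurons express Sp8, moved the same way. They were lower in STR than in PFC for 8 of 12 and higher for 1 in Nestin-Cre mice (median -2.15), and lower for 7 and higher for 1 in AAV-Cre mice (median -1.40). Of these 12 genes, 10 passed the filter in the genotype fits of Nestin-Cre STR and 9 in those of AAV-Cre STR. For the others a higher level in STR could not be found. Single libraries moved the SN values of Sp8: without A_SN_WT_3576, a setting chosen after seeing the data, SN against PFC went from -3.39 to -4.37 in AAV-Cre mice, and SN against STR from -1.29 to -2.27. Without A_SN_WT_3587 the latter was -1.09 and not called (adjusted p = 0.104). Without N_SN_WT_4529 SN against PFC went from -3.69 to -4.27 in Nestin-Cre mice. Sp8 did not pass the filter within WT SN and entered these fits through the other regions. Only a lower level in SN could be found for it, so its SN values and calls are a description.

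Igfbpl1 (minus strand of chr4:45809507-45826827) encodes a secreted protein of the insulin-like growth factor binding family and is used as a marker of neuroblasts. In WT Nestin-Cre mice it was at 3.24 to 7.09 cpm (median 4.498) in PFC, 1.22 to 3.97 (median 2.35) in STR and 0 to 0.391 (median 0.186) in SN. SN lay apart below both, with 0 to 6 counts per library there and 0 to 15 in AAV-Cre SN, where 3 of the 7 WT libraries had no count. Igfbpl1 was lower in SN than in STR by -3.68 ± 0.392 in the Nestin-Cre and -3.45 ± 0.499 in the AAV-Cre model (-4.53 without A_SN_WT_3578, its highest library). It reached 1 cpm in no WT SN library and passed the filter of these fits only through PFC and STR, so a lower level in SN was all they could show, and these values are a description. The fall from PFC to STR was -0.86 ± 0.269 (adjusted p = 0.00837) in Nestin-Cre mice, and in AAV-Cre mice the value was -0.25 ± 0.375 (adjusted p = 0.589). HET libraries in place of WT gave Igfbpl1 a value of 0.31 for the same step in Nestin-Cre mice.

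Cd24a (plus strand of chr10:43579169-43584265), a surface glycoprotein of young neurons that ependymal cells also carry, was lowest in SN in neither model. In WT Nestin-Cre mice it was highest in SN, at 12.4 to 34.0 cpm (median 18.3), against 9.59 to 15.8 (median 11.8) in PFC and 5.70 to 17.6 (median 12.2) in STR. All 3 ranges overlapped. Cd24a in SN was above PFC by 0.68 ± 0.219 and above STR by 0.78 ± 0.237 (adjusted p = 0.00586), and PFC and STR were not separated (-0.10 ± 0.224, adjusted p = 0.718). HET libraries turned the sign for SN against STR (-0.16). In AAV-Cre mice STR was the highest (9.78 to 15.2 cpm, median 12.1), PFC was at 6.43 to 9.86 (median 7.89), and SN at 7.27 to 20.2 (median 8.69). There Cd24a in STR was above PFC (0.60 ± 0.181) and SN was above PFC by 0.44 ± 0.181 (adjusted p = 0.0354). The latter rested on A_SN_WT_3578, at 20.2 cpm where the next library was at 10.98. Without it Cd24a in SN was no longer called above PFC (0.20 ± 0.121, adjusted p = 0.153) and was called below STR (-0.41 ± 0.118, adjusted p = 0.0043).

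The division genes Mki67 and Top2a were low in every region. In WT Nestin-Cre mice Mki67 was at 2.13 to 6.30 cpm (median 5.15) in PFC, 0.576 to 7.05 (median 4.90) in STR and 1.05 to 2.56 (median 2.08) in SN. Top2a was at 2.06 to 5.53 cpm (median 4.57), 0.320 to 7.80 (median 5.38) and 1.44 to 2.82 (median 2.42). For both genes PFC and STR overlapped widely (Mki67 -0.09 ± 0.330, adjusted p = 0.822; Top2a 0.12 ± 0.342, adjusted p = 0.772), and the SN mean was lower (Mki67 -1.26 ± 0.375 and Top2a -1.06 ± 0.382 against STR). In AAV-Cre mice STR stood above PFC instead: Top2a was at 4.29 to 5.34 cpm (median 4.604) in STR and 1.88 to 2.62 (median 2.36) in PFC, with no overlap (1.03 ± 0.161, adjusted p = 9.06e-06), and Mki67 at 2.93 to 6.23 (median 4.88) against 2.10 to 3.43 (median 2.68), overlapping (0.83 ± 0.242, adjusted p = 0.00539). In AAV-Cre SN Top2a was at 0.484 to 1.29 cpm (median 0.822), below all STR libraries (-2.40 ± 0.173, adjusted p = 2.49e-11), and Mki67 was lower too (-1.82 ± 0.251, and -2.25 without its highest library, A_SN_WT_3587). Genes of cells that line and fill the ventricle differed alongside. Ependymal genes were higher in STR than in PFC for 10 of 10 in AAV-Cre mice (median 1.67), with sums of 46.6 to 90.96 cpm in STR against 14.7 to 24.6 in PFC, and for 9 of 10 in Nestin-Cre mice (median 1.47). Of these 10 genes, 9 passed the filter in the genotype fits of AAV-Cre PFC but only 5 in those of Nestin-Cre PFC. For the others only a higher level in STR could be found. Choroid plexus genes were higher for 8 of 8 (median 4.37) and for 6 of 8 (median 1.62), with sums of 114.4 to 8317 cpm in AAV-Cre STR. Only 4 of these 8 passed the filter in the genotype fits of PFC in each model. For the others a lower level in STR could not be found. In AAV-Cre SN against STR ependymal genes were lower for 9 of 10 (median -1.55). There 8 of the 10 passed the filter in the genotype fits of SN, and for the others only a lower level in SN could be found. Their part in the values of Cd24a, Mki67 and Top2a was not tested.

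**Figure D1:**
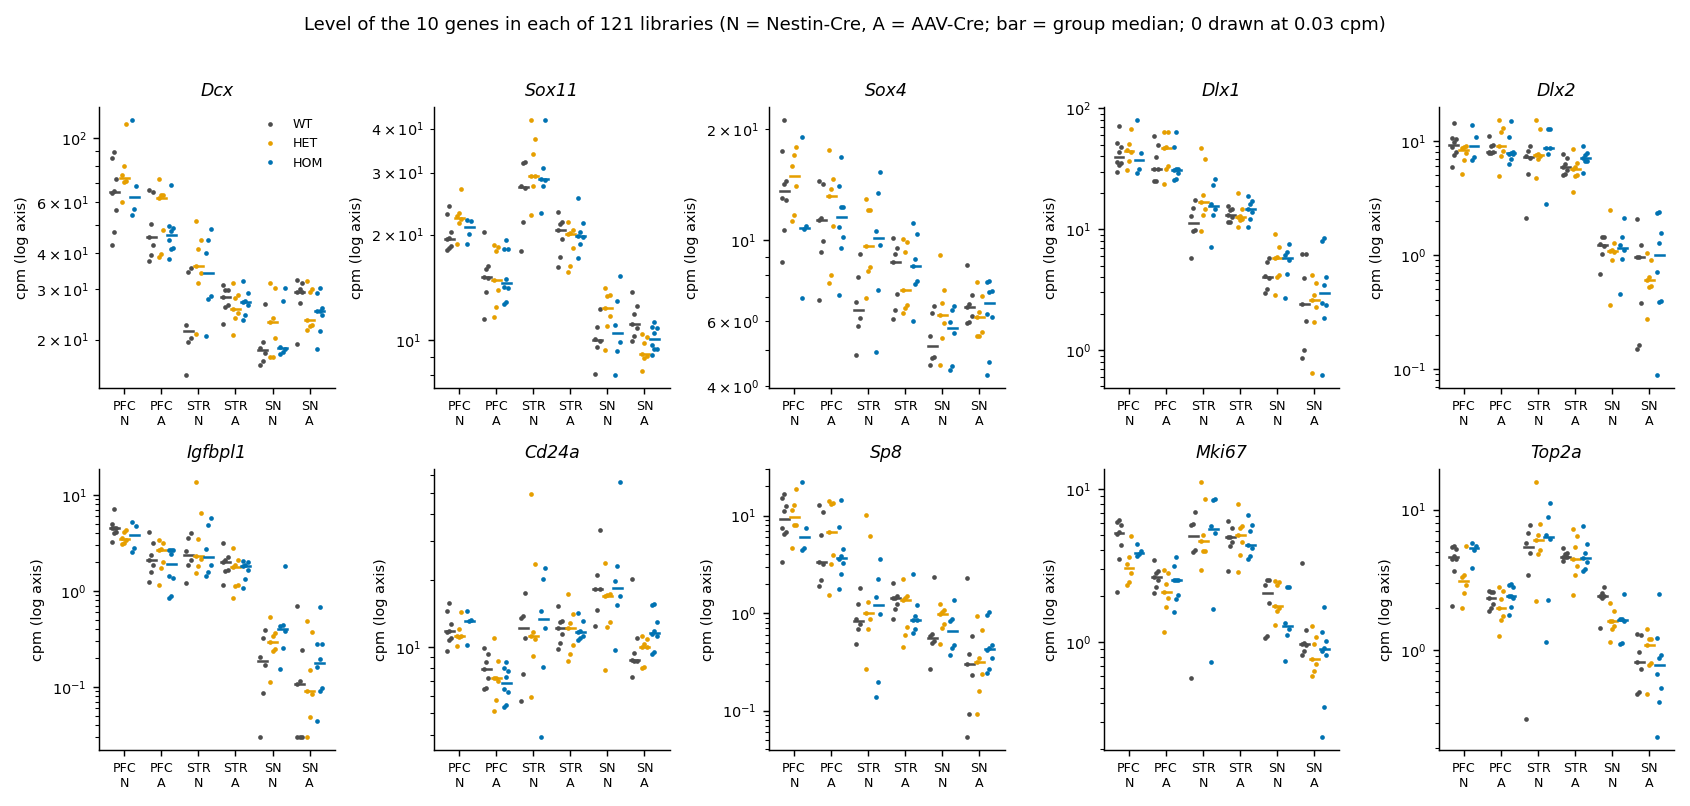
Level of each of the 10 genes in every library (cpm on a log axis, 0 drawn at 0.03), by region (PFC, STR, SN) and model (N, Nestin-Cre; A, AAV-Cre), coloured by genotype, with a bar at each group's median. Dcx, Dlx1 and Sp8 are highest in PFC and Igfbpl1 is near 0 in SN, where WT medians are 0.186 and 0.108 cpm, while WT, HET and HOM points overlap in every panel.

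Compared per length of exon, Dlx1 led in WT Nestin-Cre PFC with 15.7 rpkm (cpm per kilobase of exon), ahead of Dcx with 7.14, Cd24a with 6.74 and Sox4 with 4.76 rpkm. Mki67 with 0.477 and Top2a with 0.849 rpkm were lowest there. In SN of the same mice the lead passed to Cd24a with 10.9 rpkm, and Dlx1 was at 1.52 and Igfbpl1 at 0.0714 rpkm. In cpm the highest over the lowest of the 6 WT group means was 27.9-fold for Igfbpl1 and 17.6-fold for Sp8, which became 59.3-fold without A_SN_WT_3578 and 36.4-fold without A_SN_WT_3576. It was 13.6-fold for Dlx1 and 11.2-fold for Dlx2, but 2.49-fold for Cd24a, 2.59-fold for Sox4 and 2.603-fold for Sox11.

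Counted over the 10 genes, SN was the low region in both models. In WT Nestin-Cre mice 6 genes were lower in STR than in PFC and 1 (Sox11) was higher, where 34% of all genes tested were called lower and 34.2% higher. HOM libraries in place of WT gave 4 calls for this step, Dcx, Dlx1 and Sp8 lower and Sox11 higher, with 47.9% of all genes called in either direction, and HET libraries turned the sign of Dlx2, Igfbpl1, Mki67 (0.82) and Cd24a (0.57, adjusted p = 0.203). In SN against PFC 9 were lower and 1 (Cd24a) was higher, with 41.2% and 37.6% of all genes. Igfbpl1 and Sp8 passed the filter through the other regions and not within WT SN, so only a lower level in SN could be found for them. Over the 8 genes that passed within WT SN, 7 were lower than in PFC and 5 lower than in STR in each model. In SN against STR 6 were lower and 1 (Cd24a) was higher, with 38.3% and 37.8% of all genes. In WT AAV-Cre mice STR against PFC gave 5 lower and 4 higher (Sox11, Cd24a, Mki67 and Top2a), with 31.8% and 33.8% of all genes. There SN against PFC gave 9 lower and 1 higher, the Cd24a call that 1 library carried (36.4% and 37.7%), and SN against STR gave 7 lower and 0 higher (35.9% and 39.7%). Medians of the 10 log2 fold changes were -0.70, -1.58 and -1.16 in Nestin-Cre mice and -0.35, -1.19 and -1.56 in AAV-Cre mice, in the same order of comparisons, against medians over all genes between -0.03 and 0.03. The medians for SN include Igfbpl1 and Sp8, whose direction there was set by the filter, and so are a description. Among the cell types that set SN apart, oligodendrocyte genes were higher than in PFC for 10 of 10 in both models (medians 2.27 and 1.76). Olfactory bulb genes were lower in SN than in PFC for 9 of 12 and higher for 3 in both models (medians -2.86 and -1.77), beside their falls in STR given with Sp8, and relations within PFC are taken up further on. Of these 12 genes, 9 passed the filter in the genotype fits of Nestin-Cre SN and 8 in those of AAV-Cre SN. For the others only a lower level in SN could be found. The part of these lists in the regional counts was not tested. The 3 comparisons of a model share libraries, and so are not separate evidence. In bulk tissue fewer cells of a type and less RNA per cell cannot be told apart. With mouse as a block, Dcx (-0.41) and Sox4 (-0.44) were also called lower in SN than in STR of Nestin-Cre mice.

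**Figure D2:**
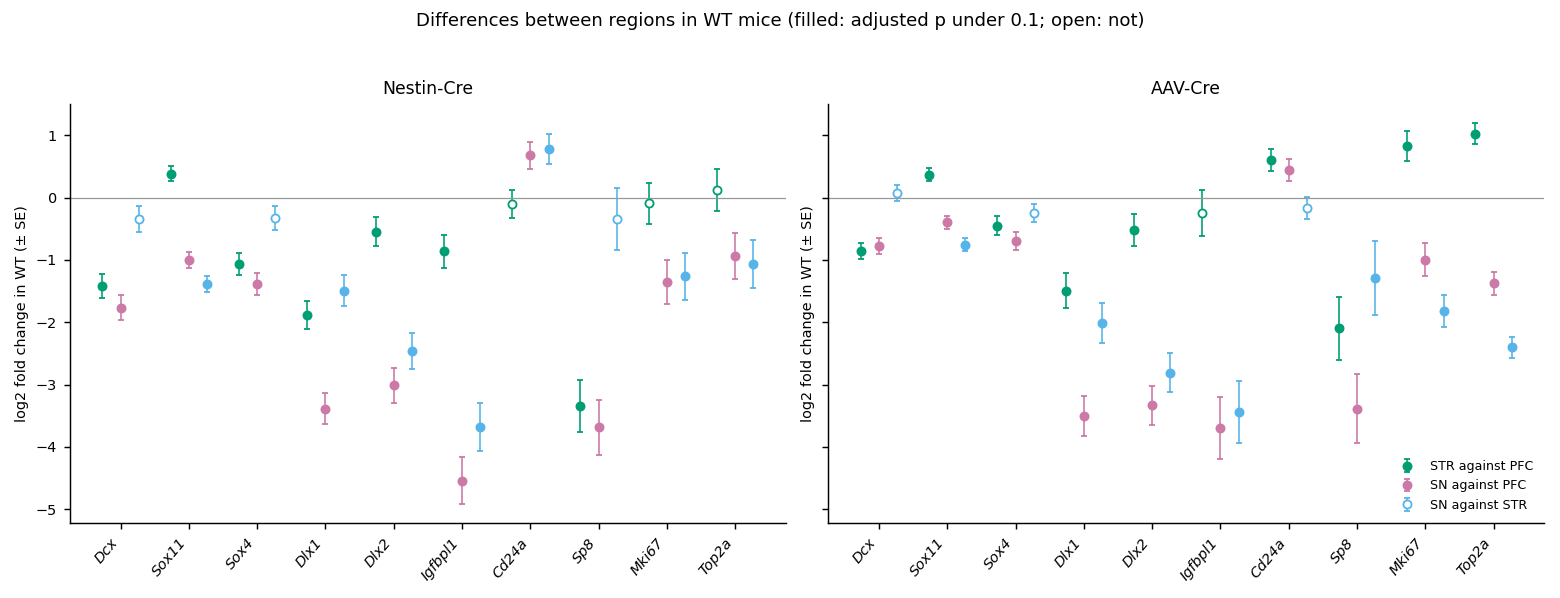
Log2 fold change (± SE) of each gene between regions in WT mice, left Nestin-Cre and right AAV-Cre, filled where the adjusted p was under 0.1. Most points lie below 0 for SN against PFC, with Cd24a above it at 0.68 and 0.44 (0.20 and not called without A_SN_WT_3578), and Mki67 and Top2a pass from near 0 (-0.09 and 0.12) in Nestin-Cre to 0.83 and 1.03 in AAV-Cre mice for STR against PFC.

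Most calls between the models in WT libraries fell in PFC, with 6 of 10 genes against 1 in STR and 4 in SN, and the regions were not tested against each other. Older AAV-Cre mice had lower levels of 6 genes in PFC than 2-month Nestin-Cre mice and a higher level of 0, where 22.6% of all genes were called lower and 24.3% higher. Top2a was at 2.06 to 5.53 cpm (median 4.57) in Nestin-Cre and 1.88 to 2.62 (median 2.36) in AAV-Cre PFC, a fall by -0.93 ± 0.174 (adjusted p = 0.00066), and Mki67 fell by -0.84 ± 0.190 (adjusted p = 0.00244). Igfbpl1 went from 3.24 to 7.09 cpm (median 4.498) to 1.25 to 4.08 (median 2.07), a fall by -0.95 ± 0.219 (adjusted p = 0.00281). All 7 AAV-Cre libraries lay below the Nestin-Cre mean for these 3 genes and for Cd24a (-0.61 ± 0.123, adjusted p = 0.0011), although the ranges overlapped. Sox11 (-0.37 ± 0.101, adjusted p = 0.00809) and Dcx (-0.38 ± 0.162, adjusted p = 0.0709) were also called lower, the call of Dcx being lost without N_PFC_WT_4329 (-0.30, adjusted p = 0.137). Sox4 (-0.32 ± 0.175, adjusted p = 0.151) and the interneuron factors Dlx1 (-0.21 ± 0.20), Dlx2 (-0.10 ± 0.151) and Sp8 (-0.73 ± 0.392, adjusted p = 0.15) missed the threshold. Olfactory bulb genes, taken up further on, were also lower in AAV-Cre PFC for 3 of 12 and higher for 0 (median -0.49). Other lists moved there too: genes of striatal projection neurons were higher in AAV-Cre PFC for 8 of 8 (median 0.83), with sums of 829.7 to 2011 cpm against 587.7 to 1124, microglia genes for 10 of 10 (median 0.45), with sums of 547 to 759.2 against 441.7 to 537.5, and oligodendrocyte genes were lower for 5 of 10 (median -0.20). Their part in the values of the members was not tested.

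In WT STR only Sox11 differed between the models, at 16.2 to 23.1 cpm (median 20.7) in AAV-Cre against 17.99 to 32.2 (median 27.3) in Nestin-Cre mice (-0.39 ± 0.128, adjusted p = 0.0184, ranges overlapping). That is 1 gene lower and 0 higher, with 29.9% and 32% of all genes. HET and HOM libraries in place of WT gave 5 and 2 called genes there, all lower, with 43.2% and 31.4% of all genes called in either direction. The other 9 genes had values from -0.34 (Igfbpl1) to 0.51 (Sp8), and 6 of these, Dcx, Sox4, Dlx1, Sp8, Cd24a and Mki67, were positive with WT but negative with HET and with HOM libraries. HET values were -0.50 for Dcx, -0.32 for Sox4, -0.73 for Dlx1, -1.27 for Sp8, -0.51 for Cd24a and -0.17 for Mki67, of which those of Dcx and Dlx1 were called. Choroid plexus genes, which mark the tissue inside the ventricles, were higher in AAV-Cre STR in 8 of 8 cases (median 3.55), and ependymal genes, which mark the ventricle lining, in 6 of 10 (median 0.68), and their part in the values of STR was not tested. Of the 8 choroid plexus genes, 7 passed the filter in the genotype fits of Nestin-Cre STR, and for the other only a higher level in AAV-Cre STR could be found.

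In WT SN 8 genes passed the filter, Igfbpl1 and Sp8 not among them. Dcx was higher in AAV-Cre mice (19.2 to 32.3 cpm, median 29.2, against 16.3 to 26.7, median 18.4; 0.51 ± 0.126, adjusted p = 0.00328), as was Sox4 (0.26 ± 0.119, adjusted p = 0.0732). Cd24a was lower (-0.95 ± 0.261, adjusted p = 0.00665). Top2a was at 0.484 to 1.29 cpm against 1.44 to 2.82 in Nestin-Cre mice, with no overlap (-1.46 ± 0.250, adjusted p = 2e-04). So 2 were higher and 2 lower, with 30.5% and 31.9% of all genes. With HET in place of WT libraries 7 were called, all lower, where 32.5% of all genes were called in either direction, and Sox4 was then at -0.06. The Dcx call was lost with either genotype in place of WT (0.13, adjusted p = 0.507 for HET and 0.15, adjusted p = 0.375 for HOM), and that of Sox4 also with HOM (0.14, adjusted p = 0.468) or without N_SN_WT_4529 (0.25, adjusted p = 0.127) or N_SN_WT_4545 (0.24, adjusted p = 0.136). Mki67 (-0.58) was called lower without A_SN_WT_3587 (-1.01, adjusted p = 0.00455). Cd24a was at -1.19 without A_SN_WT_3578. Glial lists moved with the falls of Cd24a and Top2a in AAV-Cre SN. Oligodendrocyte genes were lower for 10 of 10 (median -0.93), with sums of 13100 to 19870 cpm against 17100 to 32870, microglia genes for 7 of 10 (median -0.49), with sums of 461.6 to 702.8 against 610 to 918.9, and astrocyte genes for 6 of 8 (median -0.32), with sums of 4856 to 5985 against 5468 to 8042. Choroid plexus genes were lower for 3 of 8 and higher for 1 (median -1.09), and ependymal genes lower for 2 of 7 tested (median -0.37). Lists of neurons and vessels moved with the rises of Dcx and Sox4. Striatal projection neuron genes were higher in AAV-Cre SN for 5 of 8 and lower for 0 (median 1.06), with sums of 259.3 to 921.4 cpm against 187.2 to 248.3, and with the adenosine receptor gene Adora2a at 2.38 (adjusted p = 0.0325). Midbrain dopamine neuron genes were higher for 4 of 8 and lower for 0 (median 0.26), with sums of 1883 to 4008 cpm against 2383 to 3511. Vascular genes were higher for 4 of 8 and lower for 1 (median 0.43), and of cortical excitatory neuron genes only Cux2 was called of 7 tested (1.01). The part of these lists in the SN values was not tested.

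**Figure D3:**
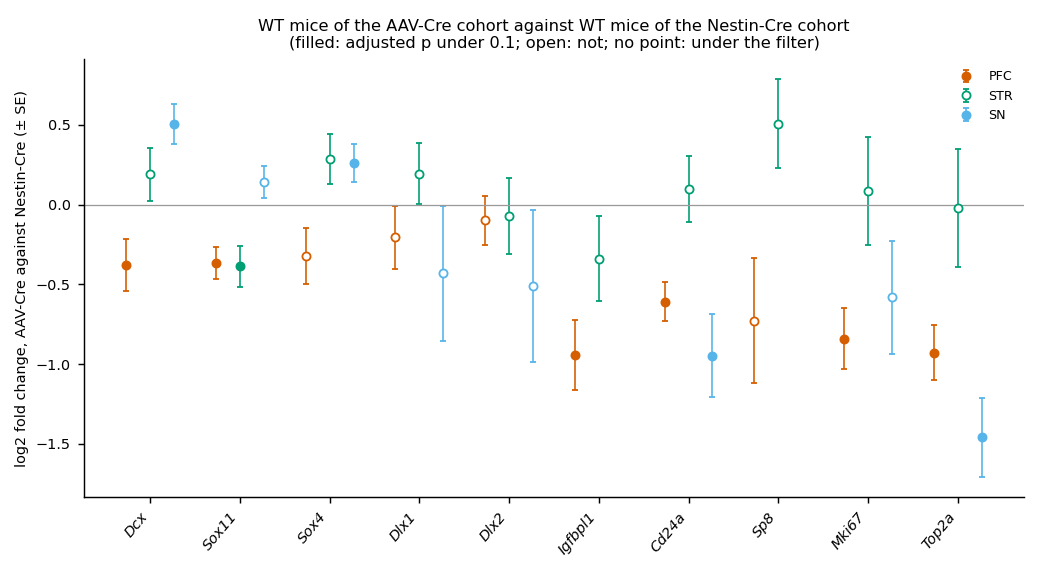
Log2 fold change (± SE) of each gene in WT AAV-Cre (5 to 7 months) against WT Nestin-Cre mice (2 months in the labels) in PFC, STR and SN, filled where the adjusted p was under 0.1 and without a point where the gene was under the filter. In PFC all 10 points lie below 0, and in SN Dcx (0.51) and Top2a (-1.46) lie on opposite sides.

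By an interaction test over all WT libraries, regional differences changed between the models for some of the 10 genes. They did so for 29.4% to 45% of all genes as well, and the members were not tested against those shares. The step from PFC to STR was more positive in AAV-Cre mice for Dcx (0.57 ± 0.234, adjusted p = 0.0765), Sox4 (0.61 ± 0.230, adjusted p = 0.0504), Cd24a (0.71 ± 0.298, adjusted p = 0.0842) and Top2a (0.91 ± 0.395, adjusted p = 0.0943), 4 of 10 genes where 29.4% of all genes were called. Without N_PFC_WT_4329 only Sox4 of these was called (28.7% of all genes). With mouse as a block 2 of these calls, Dcx and Cd24a, were lost (30.6% of all genes called), and with no filter on low counts only Sox4 was called (20.1%). The likelihood ratio test called 7 (21.4%), Dlx1, Sp8 and Mki67 added to the 4. The step from PFC to SN was more positive for Dcx (0.95 ± 0.236, adjusted p = 0.00151), Sox11 (0.57 ± 0.164, adjusted p = 0.00567) and Sox4 (0.65 ± 0.233, adjusted p = 0.0248), 3 of 10 genes with 45% of all genes. From STR to SN it was more positive for Sox11 (0.58 ± 0.167, adjusted p = 0.00957) and more negative for Cd24a (-0.98 ± 0.302, adjusted p = 0.0151) and Top2a (-1.38 ± 0.429, adjusted p = 0.0159), again 3 of 10, with 34% of all genes. There the likelihood ratio test called 6 (25.5%). These terms share the WT libraries.

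Gdnf genotype gave no call among the 10 genes in any of the 12 comparisons, by edgeR's quasi-likelihood test or by DESeq2, without covariates. The study reported many more changed genes in PFC of both models than these fits called over all genes. The reason for that difference was not tested, so the lack of calls here does not speak for the study's own lists. In Nestin-Cre PFC Dcx was at 59.9 to 111.4 cpm (median 72.7) in HET and at 54.2, 56.9, 68.1 and 115.9 in the 4 HOM libraries, against 42.6 to 89.8 (median 65.0) in WT. Sp8 was at 4.49, 4.603, 7.44 and 22.3 cpm in the HOM libraries, and Dlx1 at 29.1, 31.7, 42.7 and 80.8 cpm. N_PFC_HOM_4580 was the highest HOM library for 8 of the 10 genes, and without it, as without each other HOM library, 0 were called. Mki67 was at 3.65, 3.75, 3.93 and 4.35 cpm in HOM and 2.36 to 4.95 (median 3.04) in HET, within the WT range of 2.13 to 6.30. Here 0 members were called in HET and HOM, where 0% and 0.25% of all genes were. At an unadjusted p under 0.05 there were 2 in HET, Mki67 (-0.58 ± 0.203) and Top2a (-0.45 ± 0.211), and 0 in HOM, beside 9.72% and 10.1% of all genes. The likelihood ratio test called 2 in HET, Dcx (0.26, adjusted p = 0.0497) and Mki67 (adjusted p = 0.067), where it called 2.88% of all genes. Other lists differed in HET at an unadjusted p under 0.05. Oligodendrocyte genes did so for 10 of 10, all lower (median -0.41), with sums of 3625 to 4236 cpm against 4123 to 7106 in WT, and microglia genes for 5 of 10 (median -0.15, 2 positive), with sums of 440.8 to 469.3 cpm against 441.7 to 537.5. Genes of oligodendrocyte precursors, which can divide, did so for 4 of 12 (median -0.11, 3 positive). Genes of striatal projection neurons did so for 8 of 8, all lower (median -0.70). Olfactory bulb genes were positive for 11 of 12 in HET (median 0.23) and for 2 of 12 in HOM (median -0.39), with 0 at an unadjusted p under 0.05 in either. The part of these lists in the values of Dcx, Mki67 and Top2a was not tested.

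In Nestin-Cre STR all 10 genes had positive log2 fold changes in HET (median 0.58) and in HOM (median 0.39), where the median of all genes was 0.01 in both, and 0 were called (0% of all genes in each). The positive sign in HOM rested in part on N_STR_HOM_4575, the library whose animal number is also labelled WT. Without that number Igfbpl1 (-0.04) and Mki67 (-0.06) were negative in HOM, Top2a and Cd24a were at 0.03, Sox11 at 0.06, and Dcx kept 0.45. HET and HOM share the WT libraries. Dcx was at 21.0 to 51.5 cpm (median 36.1) in HET libraries and 20.5 to 48.3 (median 34.1) in HOM against 15.1 to 35.5 (median 21.4) in WT. Dlx1 was at 9.71 to 46.7 cpm (median 16.9) in HET libraries and 7.12 to 26.2 (median 15.5) in HOM against 5.76 to 17.6 (median 11.3). The groups overlapped for every gene. At an unadjusted p under 0.05 there were 3 genes in HET, Dcx (0.60 ± 0.229), Sox4 (0.57 ± 0.221) and Dlx1 (0.94 ± 0.357), with adjusted p of 0.222 to 0.229, and 2 in HOM, Dcx (0.51 ± 0.236) and Sox4 (0.60 ± 0.228, adjusted p = 0.784), beside 17.3% and 4.62% of all genes. The likelihood ratio test called 6 in HET (Dcx, Sox4, Dlx1, Sp8, Igfbpl1 and Cd24a) and 1 in HOM (Dcx), where it called 8.57% and 1.91% of all genes.

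Single mice stood at the ends of the spread in Nestin-Cre STR. N_STR_HET_4564 was the highest of its group for 9 of the 10 genes, with Igfbpl1 at 13.7 cpm (next 6.46), Cd24a at 49.5 (next 23.8) and Top2a at 15.8 (next 7.96), and N_STR_HET_4579 was the lowest for 8. Among WT libraries N_STR_WT_4545 was the lowest for 9 genes and N_STR_WT_4612 the highest for 8. Among HOM libraries N_STR_HOM_4575 was the highest for 7 genes and N_STR_HOM_4393 the lowest for 8. Ependymal genes differed alongside in these libraries: their summed level was 145.7 cpm in N_STR_HET_4564, 22.6 in N_STR_HET_4579, 17.9 in N_STR_WT_4545, 50.6 in N_STR_WT_4612, 77.7 in N_STR_HOM_4575 and 14.7 in N_STR_HOM_4393. The match was not complete: N_STR_HET_4566 had the second highest ependymal sum of HET (89.4 cpm) and the second lowest sum of the 10 genes (112 cpm), and N_STR_WT_4394 had 50.2 and 92.8 cpm. All 10 genes of that list were detected, and their sums over the WT libraries were 17.9 to 50.6 cpm (median 42.4), over HET 22.6 to 145.7 (median 50.9) and over HOM 13.7 to 91.3 (median 42.1). Their log2 fold changes were positive for 10 of 10 in HET (median 0.86) and 9 of 10 in HOM (median 0.35). Choroid plexus genes were positive in HET for 7 of 7 tested (median 2.73), with Ttr at 18330 cpm in N_STR_HET_4566 but 6.72 in N_STR_HET_4564, and their sums were 55.6 to 312.4 cpm in WT, 44.1 to 19010 in HET and 36.4 to 86.5 in HOM. Genes of cortical excitatory neurons were positive in HET for 1 of 8 (median -1.42), with sums of 42.6 to 352.7 cpm in WT and 44.6 to 172.9 in HET. Genes of striatal projection neurons, the main neurons of the region, were positive in HET for 0 of 8 (median -0.39), 6 of them at an unadjusted p under 0.05, with sums of 8762 to 11760 cpm in WT (median 10350), 5182 to 10650 in HET (median 7055) and 6949 to 10670 in HOM (median 9172), and with Ppp1r1b at a mean of 2853 cpm in WT and 1896 in HET. Vascular genes were positive for 7 of 8 in HET (median 0.38, 1 at an unadjusted p under 0.05) and 8 of 8 in HOM (median 0.45, 4 at that p), with sums of 204.7 to 311.2 cpm in WT, 225.2 to 359 in HET and 239.8 to 321.9 in HOM. The part of these lists in the HET and HOM values was not tested beyond the settings that follow. Without N_STR_HET_4564, a setting chosen after seeing the data, Dcx was at 0.57 and Sox4 at 0.50, Dlx1 at 0.66, Sp8 went from 1.57 to 0.79, and Cd24a from 0.60 to 0.07. The likelihood ratio test then called 2 in HET, Dcx and Dlx1, and 1 in HOM, Dcx, where it called 8.31% and 2.08% of all genes. With the ependymal index as a covariate, also chosen later, HET values were 0.42 for Dcx, 0.36 for Sox4, 0.48 for Dlx1, 0.25 for Sp8, -0.10 for Cd24a and -0.17 for Mki67.

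In SN 9 genes passed the filter, Igfbpl1 not among them, and 0 were called in either genotype of either model (0% of all genes in each of the 4 comparisons). In Nestin-Cre SN Top2a was at 1.14 to 2.15 cpm (median 1.60) in HET libraries and 1.10 to 2.52 (median 1.62) in HOM against 1.44 to 2.82 (median 2.42) in WT, overlapping, and was the 1 gene at an unadjusted p under 0.05 in each (-0.54 ± 0.210 and -0.54 ± 0.221), beside 8.99% and 4.09% of all genes. Glial genes were low there as well. Microglia genes were positive for 0 of 10 in HET (median -0.45, 8 at an unadjusted p under 0.05) and in HOM (median -0.28, 5 at that p), with sums of 426.1 to 676.7 and 426.1 to 716.6 cpm against 610 to 918.9 in WT. Oligodendrocyte genes were positive for 0 of 10 in both (medians -0.40 and -0.41, 5 at that p in each), with sums of 16030 to 24590 and 15260 to 23890 cpm against 17100 to 32870. Their part in the Top2a values was not tested. In AAV-Cre SN it was Sox11, at 8.18 to 10.4 cpm (median 9.17) in HET libraries and 9.12 to 11.3 (median 10.1) in HOM against 9.97 to 13.8 (median 11.1) in WT. All 7 HET libraries lay below the WT mean (-0.28 ± 0.0758, adjusted p = 0.946; HOM -0.17 ± 0.0733, adjusted p = 0.636), with 4.69% and 7.49% of all genes at that p. In AAV-Cre SN the median over the 9 genes was -0.28 in HET, with 1 positive value, and -0.06 in HOM. Choroid plexus genes moved in the same HET comparison, with 7 of 7 tested at an unadjusted p under 0.05 (median 3.65), and sums of 31.9 to 20290 cpm in HET against 30.6 to 89.2 in WT, where Ttr reached 19000 cpm in 1 HET library. Ependymal genes were positive for 7 of 8 (median 0.58, 3 at that p), and striatal projection neuron genes for 1 of 8 (median -0.58, 6 at that p) and in HOM for 0 of 8 (median -0.60, 7 at that p). The part of these lists was not tested.

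In AAV-Cre PFC and STR 0 members were called and 0 had an unadjusted p under 0.05. Of all genes 0% in HET and 0.0137% in HOM PFC, and 0% in each genotype of STR, were called, with 12.3%, 14.2%, 1.71% and 4.58% at an unadjusted p under 0.05. STR is where the virus was injected. There Dcx was at 20.7 to 31.5 cpm (median 25.5) in HET libraries and 23.5 to 31.8 (median 27.0) in HOM against 22.6 to 31.0 (median 28.0) in WT, with differences of -0.08 ± 0.0846 and -0.03 ± 0.0846. Mki67 in AAV-Cre STR was at 2.85 to 7.94 cpm (median 5.02) in HET libraries and 3.50 to 6.72 (median 4.33) in HOM against 2.93 to 6.23 (median 4.88) in WT. The 95% intervals of the Dcx differences there, built from these SEs, held 0 and reached down to -0.25 and -0.20.

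**Figure D4:**
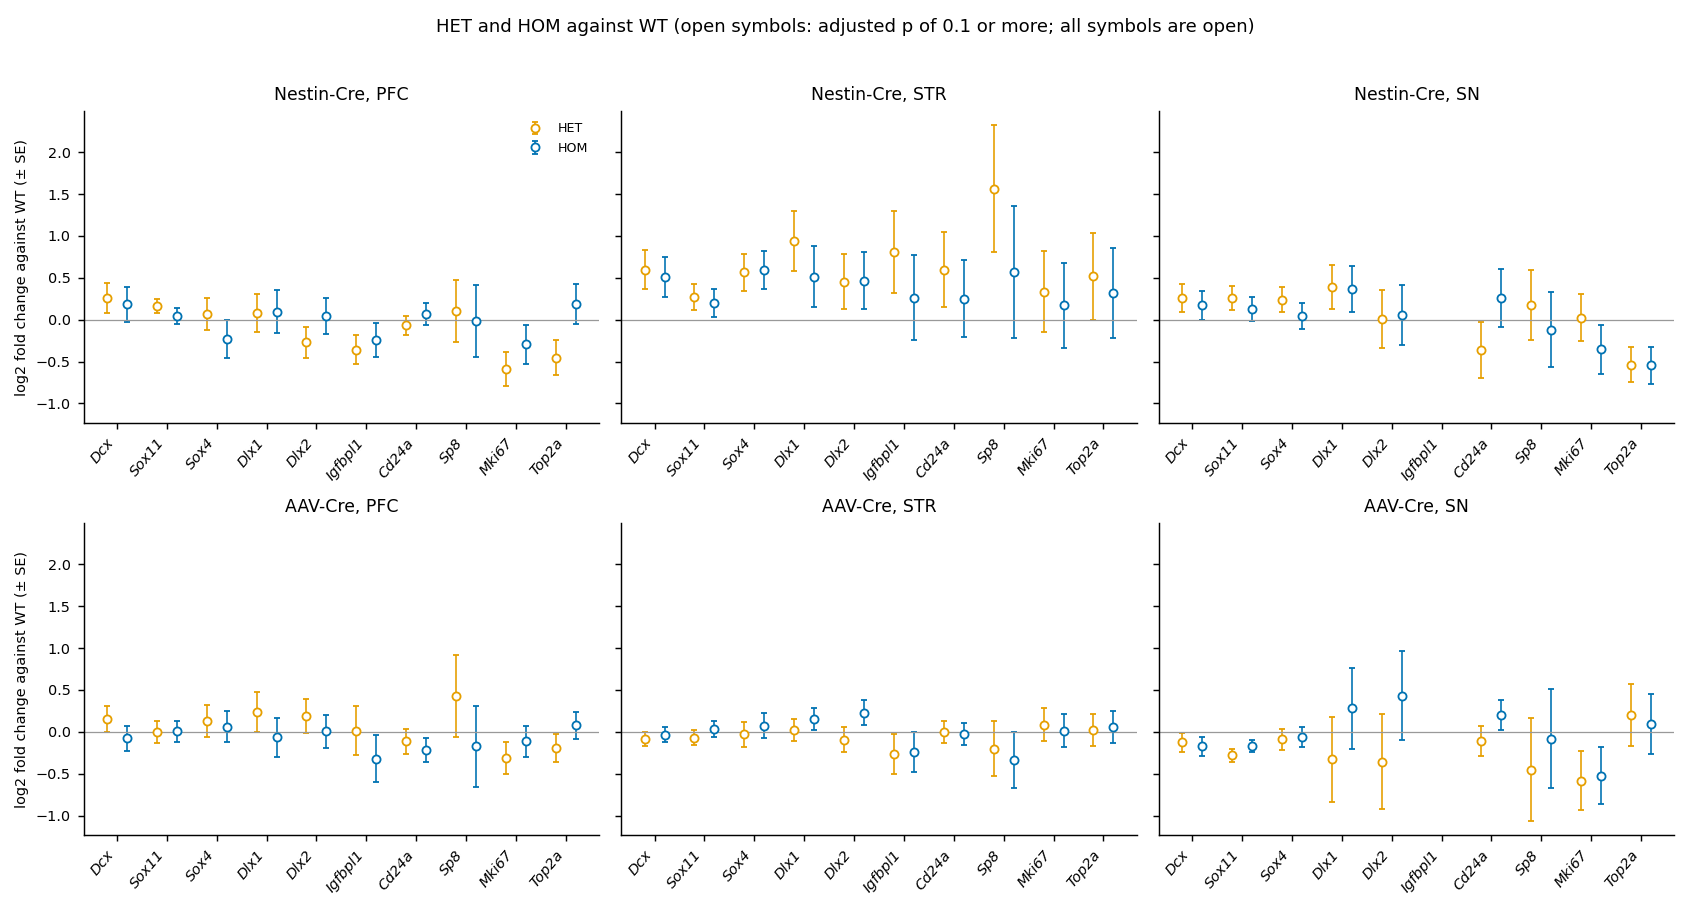
Log2 fold change (± SE) of each gene in HET and HOM against WT, in 1 panel for each model and region, with all points open because none reached an adjusted p under 0.1. In Nestin-Cre STR all 20 points lie above 0, from 0.17 to 1.57 (in HOM Igfbpl1 is at -0.04 and Mki67 at -0.06 without N_STR_HOM_4575), and in the other panels they lie on both sides of it.

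The effect of genotype was not shown to differ between the models. For HET and HOM by model 0 members were called in PFC, where 0.678% and 3.54% of all genes were, and 0 had an unadjusted p under 0.05 (14.8% and 16.6%). In STR 0 were called (0.00673% and 0.0202% of all genes), with 4 members in HET and 1 in HOM at an unadjusted p under 0.05 (15.5% and 6.67%). All 10 STR values were lower in AAV-Cre mice for both genotypes, with Dcx at -0.68 ± 0.246 for HET and -0.55 ± 0.251 for HOM. The likelihood ratio test called 5 for HET in STR (Dcx, Dlx1, Sp8, Igfbpl1 and Cd24a) and 1 for HOM (Dcx), with 6.11% and 1.74% of all genes. In SN 0 were called (0% in each), and Sox11 for HET (-0.53 ± 0.146, adjusted p = 0.288) and for HOM was the 1 gene at an unadjusted p under 0.05, with 14% and 3.32% of all genes.

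Within PFC the neuronal members rose and fell with genes of the olfactory bulb. An olfactory bulb index was taken as the mean log2(cpm + 0.5) of Doc2g, Cdhr1, Tbx21 and Eomes, which mark the bulb's output neurons. Over the 40 PFC libraries Doc2g ran from 3.75 to 73.2 cpm, Cdhr1 from 8.70 to 199.6, Tbx21 from 0 to 6.86 (0 in 2 libraries) and Eomes from 0 to 22.3 (0 in 1 library). All 12 genes of the wider bulb list were detected, with sums of 349.6 to 766.7 cpm in WT, 466.8 to 867.1 in HET and 355.6 to 870.2 in HOM Nestin-Cre mice and of 319.7 to 723.1, 352.5 to 813.9 and 365.1 to 751.1 cpm in AAV-Cre mice. The index ran from 1.20 to 5.00 (median 3.80) in WT and 1.13 to 5.15 (median 2.22) in HOM Nestin-Cre mice, and from 3.22 to 5.13 (median 4.32) in HET, which held no low library. For AAV-Cre mice the WT libraries spanned 1.88 to 5.02 (median 2.69), the HET libraries 1.80 to 5.28 (median 4.44) and the HOM libraries 1.84 to 4.94 (median 2.80).

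With group means removed, Sp8 followed the index over the 40 libraries with Pearson r = 0.952 and Spearman rho = 0.962. Dropping the 2 most extreme libraries of the index left r at 0.948. Dlx1 followed it with r = 0.94 and rho = 0.944 (0.941 after dropping the 2), Dcx with 0.866 and 0.846 (0.831), and Sox4 with 0.817 and 0.81 (0.773). Igfbpl1 (0.738 and 0.775), Dlx2 (0.737 and 0.724) and Cd24a (0.673 and 0.636) followed less closely. Each of these 7 had a permutation p of 1e-05 for both measures, the smallest that 100000 permutations can give (2.61e-05 and 4.29e-05 adjusted over the 60 relations computed). Sox11 was weaker (r = 0.487, rho = 0.491, permutation p = 0.00158 and 0.00149, adjusted 0.00237 and 0.00246). The division genes showed no positive relation with the index over the 40 libraries: Mki67 had r = -0.048 (permutation p = 0.77) and rho = -0.026 (p = 0.872), and Top2a r = -0.236 (p = 0.142) and rho = -0.213 (p = 0.187). Within Nestin-Cre (18 libraries) and AAV-Cre mice (22 libraries) r was 0.969 and 0.951 for Sp8, 0.925 and 0.951 for Dlx1, 0.929 and 0.816 for Dcx, 0.862 and 0.781 for Sox4, and -0.363 and 0.253 for Mki67. Top2a had a negative relation in Nestin-Cre mice (r = -0.474, permutation p = 0.0453, adjusted 0.0591; rho = -0.414, p = 0.0871, adjusted 0.114; r = -0.399 without the 2 farthest) and had r = 0.043 (p = 0.852) in AAV-Cre mice. The libraries share the dissection of 1 region, and how much bulb or stream tissue each PFC piece held was not tested.

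Covariates were added after seeing the data. With the index as a covariate, 7 genes were lower in AAV-Cre than in Nestin-Cre WT PFC, Sp8 (-0.50 ± 0.149, adjusted p = 0.0136) added to the 6, where 47.1% of all genes were called in either direction. Top2a (-0.95) and Mki67 (-0.87) were as large as without the covariate. With the same covariate Dcx was called higher in Nestin-Cre HOM than in WT PFC (0.42 ± 0.0885, adjusted p = 0.0333), against 0.19 ± 0.210 without it, 1 of 10 where 1.67% of all genes were called. Dcx itself followed the index closely over the 18 libraries of Nestin-Cre PFC (r = 0.929), and HOM held 4 of them, so this call is a description. For model by HOM in PFC the covariate gave 2 calls, Dcx (-0.42) and Dlx1 (-0.39), with 5.5% of all genes.

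In STR the ependymal index, the mean log2(cpm + 0.5) of 10 genes of the ventricle lining such as Foxj1 and Ccdc153, went with the members in Nestin-Cre but mostly not in AAV-Cre mice. Over 19 Nestin-Cre libraries Cd24a followed it with r = 0.917 and rho = 0.926 (permutation p = 1e-05 for both, 0.92 without the 2 farthest), Mki67 with 0.856 and 0.849 (p = 1e-05 and 2e-05), Top2a with 0.848 and 0.816 and Dlx1 with 0.828 and 0.805. The other 6 ran down to Dcx with r = 0.641 and rho = 0.581 (p = 0.00352 and 0.0105, adjusted 0.00503 and 0.0154). Over 21 AAV-Cre libraries Cd24a had r = 0.64 and rho = 0.565 (p = 0.00187 and 0.00886), and the other 9 lay between -0.202 (Dcx) and 0.28 (Dlx1) in r. The index itself varied less there, from 1.78 to 3.02 over the 3 genotypes, than in Nestin-Cre STR, where it ran from 0.454 to 3.73. The difference between the models in these correlations was not tested. Foxj1 ran from 1.87 to 29.8 cpm over the 40 STR libraries and Ccdc153 from 0.0984 to 14.0. The part of the ventricle wall in the STR pieces was not tested.

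**Figure D5:**
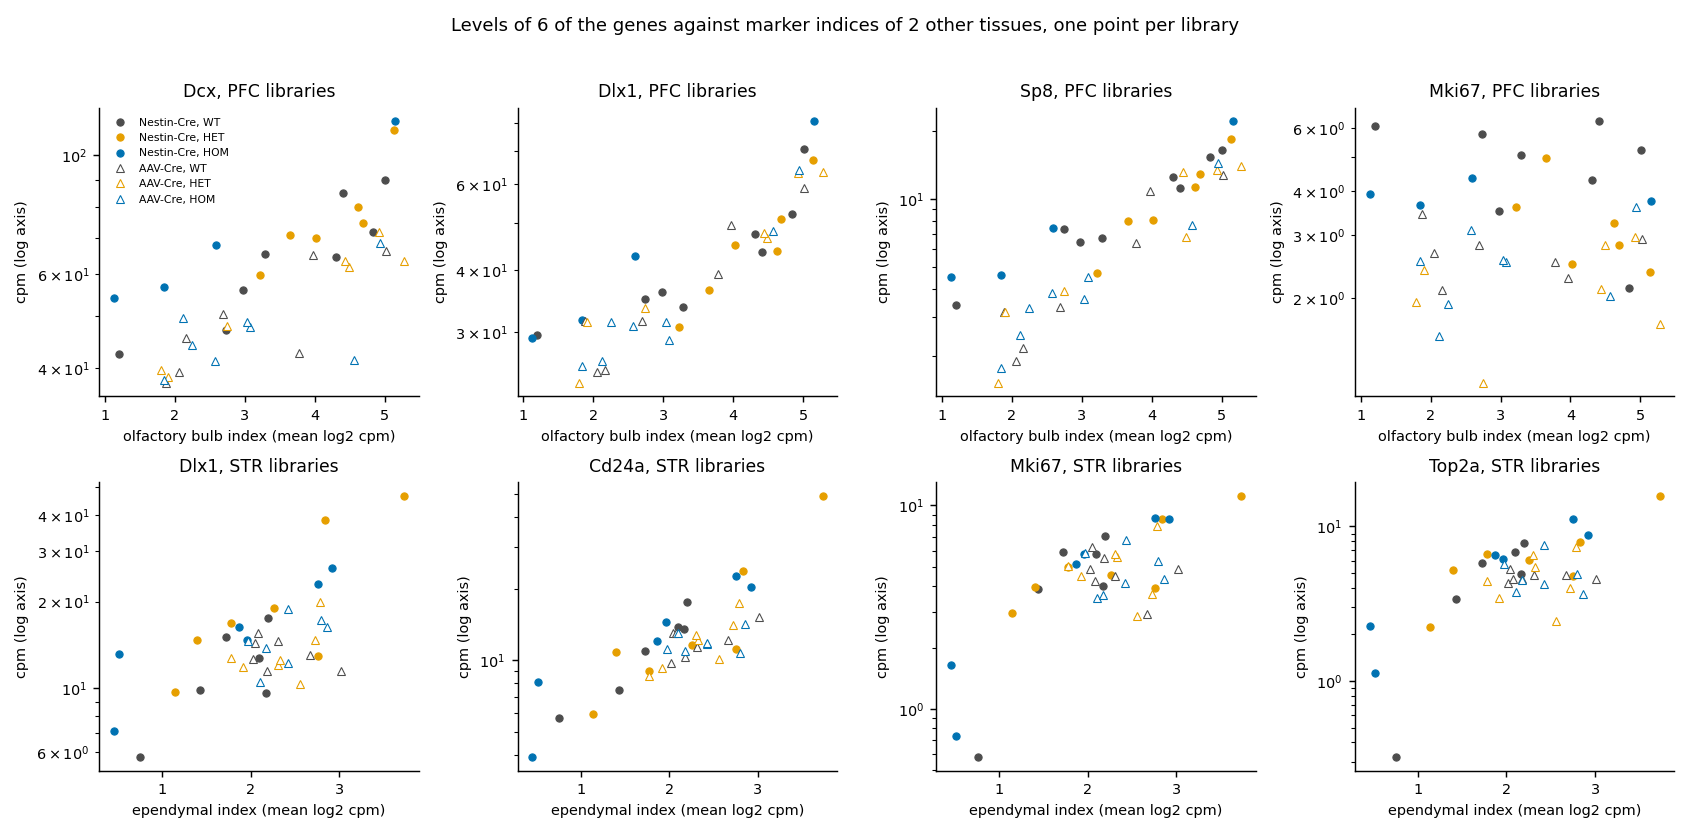
Level (cpm on a log axis) of Dcx, Dlx1, Sp8 and Mki67 against the olfactory bulb index in the 40 PFC libraries, and of Dlx1, Cd24a, Mki67 and Top2a against the ependymal index in the 40 STR libraries, with filled circles for Nestin-Cre and open triangles for AAV-Cre mice. In PFC Sp8 and Dlx1 climb with the index (r = 0.952 and 0.94 with group means removed) and Mki67 is flat (-0.048), and in STR Cd24a climbs in Nestin-Cre mice (r = 0.917).

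Among themselves the 10 genes formed 45 pairs, described here by Pearson correlations of log2(cpm + 0.5) with group means removed, with no test since all share libraries and depth. All 45 were positive over all libraries (median 0.474). The median was 0.745 in STR (45 positive), 0.51 in PFC (35 positive) and 0.153 in SN (30 positive). Dlx1 and Dlx2 gave 0.871, and Mki67 and Top2a 0.799 over all libraries, 0.95 in STR, 0.575 in PFC and 0.481 in SN. The 5 genes most like Mki67 out of 15674 were Top2a, Pclaf (0.678), Cenpf (0.677), Crocc2 (0.651) and Pbk (0.645). Among the 5 most like Dlx2 were Dlx1, Dlx5 (0.614), Dlx1as (0.598) and Sp8 (0.596). For Dcx over all libraries Ablim3 (0.718), Fbn2 (0.705), Rev3l (0.7), Pou2f1 (0.698) and Dchs1 (0.693) were nearest, and the closest of the other members were Sox11 (0.58, rank 120) and Sox4 (0.578, rank 124). Regions differed in this. Within PFC Dcx was closer to Sp8 (0.844) and Dlx1 (0.842) than to Ablim3 (0.77), and within STR Dchs1 (0.842) was above Dlx1 (0.786). In SN Dcx was positive with Sox11 (0.524), Sox4 (0.153) and Mki67 (0.08) and negative with the other members, down to -0.515 for Cd24a.

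A list of 20 other genes of immature neurons did not share one order over the regions. In WT Nestin-Cre STR against PFC 6 were higher and 9 lower, where 34.2% and 34% of all genes were. In SN against PFC 4 were higher and 12 lower (37.6% and 41.2% of all genes), and in SN against STR 8 and 9 (37.8% and 38.3%). The interneuron factor Dlx6 was higher in STR than in PFC by 2.80 and lower in SN than in STR by -4.61. Neurod1, a factor of excitatory neurons, was lower in STR by -3.16. In AAV-Cre mice Sp9, a relative of Sp8, was higher in STR by 2.08 and Neurod1 was lower by -4.99. There Neurod1 averaged 0.257 cpm in STR against 8.11 in PFC. It passed the filter through PFC, so only a lower level in STR could be found for it. In SN against PFC Tiam2 (-3.07 and -2.71) and Dlx5 (-2.82 and -3.01) fell most in the Nestin-Cre and AAV-Cre models. In WT PFC 12 of the 20 were lower in AAV-Cre mice and 1 was higher (median -0.26), with 22.6% and 24.3% of all genes. Prokr2 (-0.90) and Draxin (-0.88) led. In STR 2 were higher and 9 lower of 19 tested (32% and 29.9% of all genes), and in SN 5 and 5 (30.5% and 31.9%). The most abundant genes of the list, Tuba1a and Tubb3, averaged 547.2 and 458.5 cpm in WT Nestin-Cre PFC. Whether immature or mature neurons carried the genes of this list was not tested.

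Of 28 other cell division genes 24 passed the filter in the region fits. In WT AAV-Cre mice 12 were higher in STR than in PFC and 0 lower (median 0.36), where 33.8% and 31.8% of all genes were. Cenpe, a motor protein of the mitotic spindle, was at 0.87. In Nestin-Cre mice 4 of 24 were higher and 1 lower, where 34.2% and 34% of all genes were. Ccne2 (0.76) and Ccna2 (0.64), both cyclins, were among the higher. In SN against STR 2 were higher and 15 lower in AAV-Cre mice, where 39.7% and 35.9% of all genes were. In Nestin-Cre mice 4 were higher and 10 lower, with 37.8% and 38.3% of all genes. In the AAV-Cre genotype fits 20 passed the filter in SN and 22 in PFC. Genes that entered the region fits through STR alone could only be found higher in STR. Between the models 6 of 24 tested were lower and 0 higher in AAV-Cre PFC, where 22.6% of all genes were called lower and 24.3% higher. Prc1 (-1.06) and Pbk (-1.02) led there. In SN 11 of 21 were lower and 0 higher, with 31.9% and 30.5% of all genes, and Cenpf was at -0.84.

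Of 12 genes of neural stem and progenitor cells, 8 were lower and 3 higher in STR than in PFC of WT Nestin-Cre mice, where 34% and 34.2% of all genes were. Pax6 (-1.43) and Thbs4 (-1.07) fell most. Between the models 8 were higher and 1 lower in AAV-Cre STR (median 0.49), with 32% and 29.9% of all genes. Thbs4 was at 1.53 and Fabp7, a fatty acid binding protein of radial glia, at -1.29. In PFC 3 were higher and 1 lower (11 of 12 positive, median 0.22), with 24.3% and 22.6% of all genes. Notum, a secreted Wnt inhibitor, was at 0.58 and Fabp7 at -0.72. In SN 3 were higher and 2 lower (9 of 12 positive, median 0.13), with 30.5% and 31.9% of all genes. Nes was at 0.45 and Fabp7 at -1.39. In the 12 genotype comparisons 0 genes of the immature neuron, cell division and progenitor lists were called by the quasi-likelihood test, and in Nestin-Cre PFC HET 1 of 20, 7 of 24 tested and 4 of 12 had an unadjusted p under 0.05, beside 9.72% of all genes. Of these division genes 5 of 24 were positive (median -0.25), as were 8 of the 12 progenitor genes (median 0.09). In Nestin-Cre STR HET 7 of 20, 1 of 28 and 4 of 12 had that p, beside 17.3% of all genes. Positive there were 8 of the 20 immature neuron genes (median -0.08), so this list did not share the positive sign of the 10 members, 22 of the 28 division genes (median 0.14) and 12 of the 12 progenitor genes (median 0.37).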

How the data were processed

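Gene expression was measured by RNA-seq of PFC, STR and SN from Nestin-Cre and AAV-Cre mice (TruSeq Stranded mRNA, 75-base single-end). The authors deposited raw counts per gene. Their processing notes name bcl2fastq 2.20.0.422, STAR 2.5.2b, featureCounts 1.5.1 and mm10. How strand and multimapping reads were counted is not given in the sources used here, which can affect Dlx1 and its antisense gene. Of 24412 genes 6 had no symbol, and 0 columns of values were left unused.

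Groups came from the labels. Per fit, genes reaching 1 cpm in 3 or more libraries were kept and scaled by TMM in edgeR 4.0.16 (limma 3.58.1, R 4.3.3). Quasi-likelihood tests with a trended dispersion were two-sided, Benjamini-Hochberg adjusted over every gene of the fit, and called at an adjusted p under 0.1, the study's thresholds. SEs were the absolute log2 fold changes divided by the root of F. Genotypes were fitted together for each model and region, regions in the WT mice of a model, models in the WT mice of a region, and interactions over both models. The 21 Nestin-Cre mice gave 56 libraries and the 22 AAV-Cre mice 65. Within a region each library is another mouse, so p-values measure the spread between mice. In region and interaction fits over regions 1 mouse gave up to 3 libraries, which those p-values treat as separate unless the mouse was a block. Library totals of 9869584 to 26750905 counts limit genes of few counts, such as Igfbpl1 in SN. Correlations used log2(cpm + 0.5) with group means removed and 100000 permutations, and 15675 genes entered the search for like genes.

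Numbers in library names mark the animal: deviations of the same mouse in a pair of regions correlated with medians of 0.191 to 0.291, against -0.054 to -0.008 for other mice, over the 5 Nestin-Cre and 7 AAV-Cre WT mice that each pair of regions shared. Of the 7260 pairs of libraries 0 held identical counts. Alternatives were the likelihood ratio test, DESeq2 1.42.0, its size factors, no filter, an adjusted p under 0.05, only the genotypes compared, other genotypes in place of WT, the mouse block, and left-out libraries. The index covariates and the settings without N_STR_HET_4564 or without a WT library that stood apart were added after seeing the data. The fits were tested on simulated counts.

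All members were named, with the 5 genes most like Dcx, Dlx2 and Mki67. The rule also took the 2 called genes of largest change per list and comparison, of which the text names part, and most cell type lists are given by counts alone. A marker of STR and 1 gene like Dlx2 are not reported here. The members and lists were chosen with earlier results of these data known.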

Additional observations from a re-analysis of the deposited data

Results flagged for a closer look

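Of 180 groups of 4 to 8 libraries (10 genes in 18 groups), 21 held a library that stood apart from the rest of its group, 4 in PFC, 4 in STR and 13 in SN. The rule took the gap to the next value over the range of the group. That is 11.7% of the groups, where the rule expects about 1 in 20. The genes share libraries and some have few counts, so the 11.7% is a description and no test against chance. N_STR_HET_4564 gave 3 of the 21, with Igfbpl1 at 13.7 cpm (next 6.46), Cd24a at 49.5 (next 23.8) and Top2a at 15.8 (next 7.96). In PFC the levels that stood apart were Dcx at 68.6 cpm (next 49.6) and Sp8 at 14.6 (next 7.67) in A_PFC_HOM_3687, Sp8 at 22.3 (next 7.44) in N_PFC_HOM_4580 and Igfbpl1 at 7.09 (next 4.96) in N_PFC_WT_4329. The remaining level in STR was Sp8 at 2.51 cpm (next 1.20) in A_STR_HOM_3690.

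In Nestin-Cre SN, N_SN_HOM_4575, the animal number that also appears as WT in PFC, had Cd24a at 55.97 cpm (next 23.3) and Igfbpl1 at 1.80 (next 0.441). Dcx was at 26.7 cpm (next 19.6) in N_SN_WT_4394, Dlx2 at 2.48 (next 1.26) in N_SN_HET_4566 and Sp8 at 2.35 (next 0.617) in N_SN_WT_4529, and Top2a was low at 1.44 (next 2.32) in N_SN_WT_4545. In AAV-Cre SN, A_SN_WT_3576 was low for Dcx at 19.2 cpm (next 26.8) and high for Sp8 at 2.32 (next 0.582). A_SN_WT_3578 was high for Cd24a at 20.2 cpm (next 10.98) and Igfbpl1 at 0.689 (next 0.242), A_SN_HOM_3570 for Top2a at 2.49 (next 1.22) and Igfbpl1 at 0.680 (next 0.281), and A_SN_WT_3587 for Mki67 at 3.28 (next 1.19).

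Regional differences in WT mice that changed between the models by the interaction test were those of STR against PFC for Dcx (0.57), Sox4 (0.61), Cd24a (0.71) and Top2a (0.91), of SN against PFC for Dcx (0.95), Sox11 (0.57) and Sox4 (0.65), and of SN against STR for Sox11 (0.58), Cd24a (-0.98) and Top2a (-1.38), each a log2 difference of AAV-Cre minus Nestin-Cre mice. The calls of Dcx and Cd24a for STR against PFC were lost with mouse as a block. Those of Dcx, Cd24a and Top2a were lost without N_PFC_WT_4329. Of all genes 29.4%, 45% and 34% were called for these 3 terms, beside 4, 3 and 3 of the 10 members, which were not tested against those shares.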

How the results depend on the processing

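Over all alternatives 265 recomputed counts of members called stayed within 1.5 times the reported count and 18 moved beyond it. The likelihood ratio test called 2 members in Nestin-Cre PFC HET, 6 in STR HET, 1 in STR HOM, 5 and 1 for model by HET and by HOM in STR, 7 for model by STR against PFC and 6 for model by SN against STR. Without N_STR_HET_4564 it called 2 in STR HET and 1 in STR HOM. The olfactory bulb covariate gave 1 in Nestin-Cre PFC HOM (Dcx) and 2 for model by HOM in PFC. The causes of these shifts were not tested. Leaving out each Nestin-Cre PFC HOM library in turn gave 0 to 0 calls there, as did leaving out N_STR_HET_4564 or N_STR_HET_4578 in STR HET. Leaving out each of the 7 WT libraries that stood apart gave 1 to 5 calls for model by STR against PFC, the 1 without N_PFC_WT_4329, and moved no other count of calls by more than 1.5 times. Sp8 in AAV-Cre SN against STR went from -1.29 to -1.09 and lost its call without A_SN_WT_3587, but went to -2.27 without A_SN_WT_3576. These values of Sp8 are a description, since it did not pass the filter within WT SN.

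HOM in place of WT libraries gave 4 calls for Nestin-Cre STR against PFC and 2 for STR between the models, and HET libraries gave 5 for STR and 7 for SN between the models. HET libraries also turned signs: Dlx2 0.19, Igfbpl1 0.31, Mki67 0.82 and Cd24a 0.57 for Nestin-Cre STR against PFC, Cd24a -0.16 for SN against STR, Dcx -0.50, Dlx1 -0.73, Sp8 -1.27, Sox4 -0.32, Cd24a -0.51 and Mki67 -0.17 for STR between the models, Sox11 -0.39 and Sox4 -0.060 for SN, Dlx2 0.35 for PFC, and Dcx -0.02 for AAV-Cre SN against STR. These use other mice, and the cause was not tested. For model by STR against PFC, 1 member was called with no filter and 2 with the replicate block, which changed no other count by more than 1.5 times. Depth limits Igfbpl1, Sp8 and Dlx2 in SN, with 0 to 40 counts per WT library. A restriction to PFC libraries of low olfactory bulb index was run but is not read here, since it picks libraries low in most of these genes.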
